A study of Homo sapiens with 60 samples.

Results

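Of the 60 RNA-seq libraries in the series, 6 come from HepG2 cells exposed for 24 h to an ethanol extract of Saposhnikoviae Radix at 500 or 20 ug/mL, with 3 libraries at each dose. They were chosen by their dose labels, as the high and the low dose of that extract. Saposhnikoviae Radix is the dried root of Saposhnikovia divaricata, used in East Asian medicine, and HepG2 is a line derived from a human hepatocellular carcinoma that keeps many functions of liver cells. Across the series, 8 herbs or decoctions were extracted in ethanol and given at a high, a medium and a low dose, beside 3 vehicle libraries, and the question is which genes each extract changes. The vehicle is 0.1% DMSO by the sample labels, while the series' design text gives 2%. Saposhnikoviae Radix was also given at 100 ug/mL (3 libraries), and Menthae Herba, the aerial part of a mint, was run in the same numbered set of samples at the same doses (3 libraries a dose). No group without extract shares that set label, and the vehicle libraries carry another one, so a difference from vehicle cannot be told apart from a difference between sets. All cells are one tumour line, and the labels do not say whether the 3 libraries of a dose came from separate cultures. Each p-value thus rests on a spread among libraries that may be technical.

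Hepatocytes clear foreign compounds with enzymes whose genes are switched on by ligand-activated receptors. The aryl hydrocarbon receptor (AHR) is held in the cytoplasm by chaperones until a planar aromatic ligand binds it. It then pairs with ARNT on xenobiotic response elements near genes such as CYP1A1. NRF2 is a transcription factor that the adaptor KEAP1 holds at low levels until electrophiles or oxidants modify KEAP1, and it acts through antioxidant response elements near genes of quinone, carbonyl and glutathione metabolism. Genes of cholesterol and fatty acid synthesis are driven by the SREBP factors through sterol regulatory elements.

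The 6 libraries held 23320000 to 28400000 expected counts, within the range of 17520000 to 38910000 for the series, and mitochondrially encoded genes took 12.1% to 14.3% of them. No library of the extract stood apart on these measures. The liver character of the cells was checked with 11 hepatocyte markers, and none was at 0 in the libraries of either dose. Their summed level was 51500 to 51800 CPM (counts per 1000000 library counts) at 500 ug/mL and 54700 to 56100 CPM at 20 ug/mL, so the doses did not overlap. Among 10 markers of blood cells, PTPRC, CD3E, FCGR3A, PPBP and HBB were at 0, and the sum (1050 to 1130 CPM at 500 ug/mL, 1220 to 1260 CPM at 20 ug/mL) came mostly from LYZ. Endothelial markers summed to 6.4 to 7.86 CPM and 7.15 to 8.13 CPM, and markers of lung and gut to 323 to 340 CPM and 327 to 349 CPM, with both pairs of ranges overlapping. In such bulk libraries, fewer cells of a type and less RNA per cell cannot be told apart.

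The promoters of CYP1A1, GCLM and TXNRD1 are shown because these genes rose with dose and their 250 bases before the RefSeq start site (GRCh38.p14) hold the element of the receptor or factor named above. Capitals mark the core of the xenobiotic response element, GCGTG, in CYP1A1 and the core of the antioxidant response element, TGACNNNGC, in the others, each searched on both strands. The GCLM match lies on the opposite strand, so its capitals read as the reverse complement. Each line reads 5′ to 3′ on the gene's own strand and ends at the base before the start site.
CYP1A1: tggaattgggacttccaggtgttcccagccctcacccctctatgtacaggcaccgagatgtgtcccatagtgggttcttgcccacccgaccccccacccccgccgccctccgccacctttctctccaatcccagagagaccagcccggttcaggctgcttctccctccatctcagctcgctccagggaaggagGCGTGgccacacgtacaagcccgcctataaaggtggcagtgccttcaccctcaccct
GCLM: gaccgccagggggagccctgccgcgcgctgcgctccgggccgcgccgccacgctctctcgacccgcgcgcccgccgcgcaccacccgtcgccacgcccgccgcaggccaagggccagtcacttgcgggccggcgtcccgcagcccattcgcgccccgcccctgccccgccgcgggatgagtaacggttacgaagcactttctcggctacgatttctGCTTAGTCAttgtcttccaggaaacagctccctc
TXNRD1: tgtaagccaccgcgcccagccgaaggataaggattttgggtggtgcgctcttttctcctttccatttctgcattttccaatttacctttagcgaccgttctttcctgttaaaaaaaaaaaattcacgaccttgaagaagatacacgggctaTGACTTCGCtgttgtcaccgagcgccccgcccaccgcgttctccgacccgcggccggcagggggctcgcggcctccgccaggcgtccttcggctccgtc

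The 3 windows are chr15:74725529-74725778 (minus strand) for CYP1A1, chr1:93909431-93909680 (minus strand) for GCLM and chr12:104215529-104215778 (plus strand) for TXNRD1. Their matches begin 57, 34 and 99 bases before the start site. The xenobiotic core was present in 4 of the 6 AHR targets with a promoter in the table in 32.2% of all 35116 promoters of that length and in 42.5% of those of tested genes. The antioxidant core was present in 3 of 14 NRF2 targets in 10.9% of all promoters and in 11.9% of those of tested genes. For the sterol regulatory element TCACNCCAC the counts were 1 of 18 cholesterol genes and 1 of 14 fatty acid genes, against 0.9% of all promoters and of those of tested genes. Among called genes with a promoter, the xenobiotic core was in 1 of 2 AHR targets and the antioxidant core in 2 of 7 NRF2 targets. The sterol element was in 0 of 4 called cholesterol genes and 0 of 6 called fatty acid genes. A match describes these letters only, and short cores occur in many promoters.

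At 500 ug/mL, 141 of 16982 genes differed from 20 ug/mL (0.83%; edgeR quasi-likelihood test, Benjamini-Hochberg adjusted p under 0.05). Of these, 66 were higher (0.389% of genes tested) and 75 were lower (0.442%). The changes were mostly small: the median called gene was 1.22-fold higher or 1.2-fold lower, and 32 of the 66 and 35 of the 75 moved by less than 1.2-fold. Only 6 genes were fitted as at least 2-fold higher, namely CYP1A1, ALDH3A1, EREG, LRRC25, JAKMIP2 and the antisense gene ENSG00000257270, and no gene was called at least 2-fold lower. ENSG00000257270 was at 0 in every library of 20 ug/mL, so its fitted value is no bound. These last 4 were named after their values were seen. Removing each library's trend with GC content and length gave 246 higher and 174 lower genes, so that the larger side changed. The number called fell to 62 without high-dose replicate 1, 78 without high-dose replicate 2, 87 without low-dose replicate 2 and 57 without low-dose replicate 3.

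**Figure D1:**
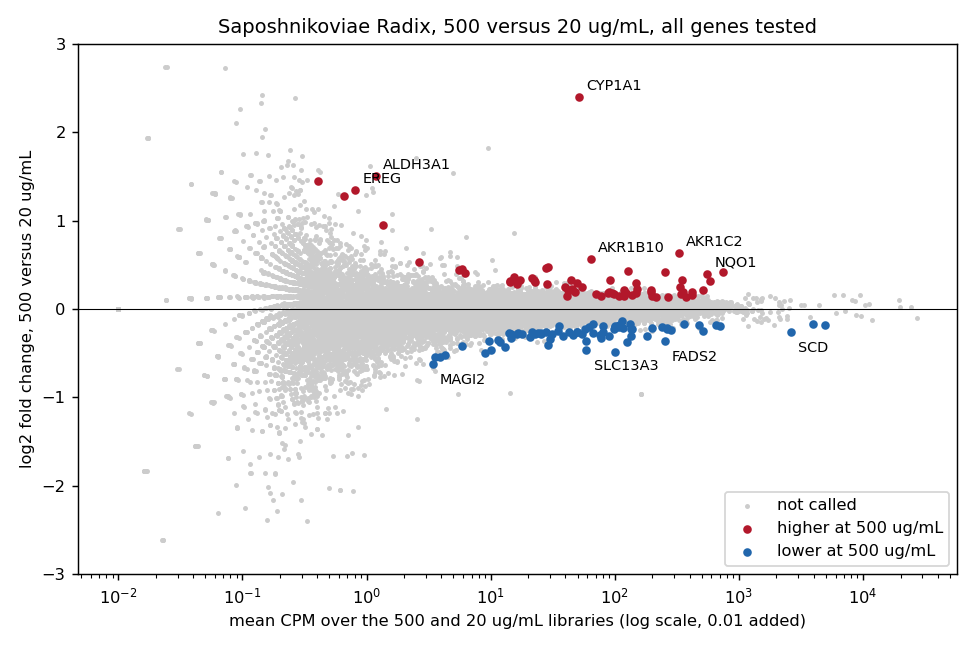
Each point is 1 of the genes tested, with its mean level over the 500 and 20 ug/mL libraries (CPM, log axis) across and its log2 fold change between the doses upward. Red and blue mark the 66 higher and 75 lower genes, which lie close to 0 except for CYP1A1 and a few genes of low level; 52 genes beyond 3 on the vertical axis are not drawn.

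CYP1A1, the cytochrome P450 that oxidises polycyclic aromatic compounds and the best known AHR target, changed most among the called genes above 5 CPM (chr15:74719542-74725610, minus strand, GRCh38). Its level was 88.8, 87.2 and 84.6 CPM in the 3 libraries of 500 ug/mL, 34.97, 33.6 and 31.3 CPM at 100 ug/mL, and 17.7, 16.3 and 15.3 CPM at 20 ug/mL. The 3 doses did not overlap and the level stepped up at each dose. CYP1A1 was 5.28-fold higher at 500 than at 20 ug/mL (log2 2.40, SE 0.084, adjusted p = 6.38e-26). It was also higher at 100 than at 20 ug/mL (log2 1.01, adjusted p = 2.19e-10) and at 500 than at 100 ug/mL (log2 1.39, adjusted p = 1.73e-17), comparisons that share libraries with the first. Vehicle libraries averaged 8.25 CPM.

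ALDH3A1, an aldehyde dehydrogenase of the same gene battery, was at 2.01, 1.59 and 1.63 CPM at 500 ug/mL and at 0.648, 0.510 and 0.669 CPM at 20 ug/mL (chr17:19737984-19748943, minus strand). The groups did not overlap, at a low level of expression. The change was 2.84-fold (log2 1.505, SE 0.244, adjusted p = 0.000192), and DESeq2 did not call it. NQO1, a quinone reductase that answers both AHR and NRF2, was the third member called higher of the 7 AHR targets tested, against 0.389% of all genes, and none was called lower. The other 4 were not called: AHRR, the repressor that AHR induces against itself, had a log2 fold change of 0.64 (SE 0.266, adjusted p = 0.342), and NFE2L2, TIPARP and CYP2S1 lay between -0.11 and 0.09. The median over the 7 was 0.40, against 0.00 over all genes tested.

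CYP1A2, the liver's constitutive member of the family, had too few counts to be tested. It had 5, 8 and 8 counts at 500 ug/mL, 2, 2 and 3 at 100 ug/mL, 2, 1 and 1 at 20 ug/mL and 0 in each vehicle library. CYP1B1 (2, 3 and 3 counts against 1, 7 and 3) and UGT1A6, a glucuronosyltransferase (4, 4 and 0 against 0, 2 and 1), were also below the filter and overlapped between the doses. The 8 genes of the receptor complex itself gave no call. AHR was at 43.1 CPM ± 0.595 (SD, n = 3) against 43.9 ± 0.864, and ARNT at 33.3 ± 1.45 against 33.4 ± 0.397.

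**Figure D2:**
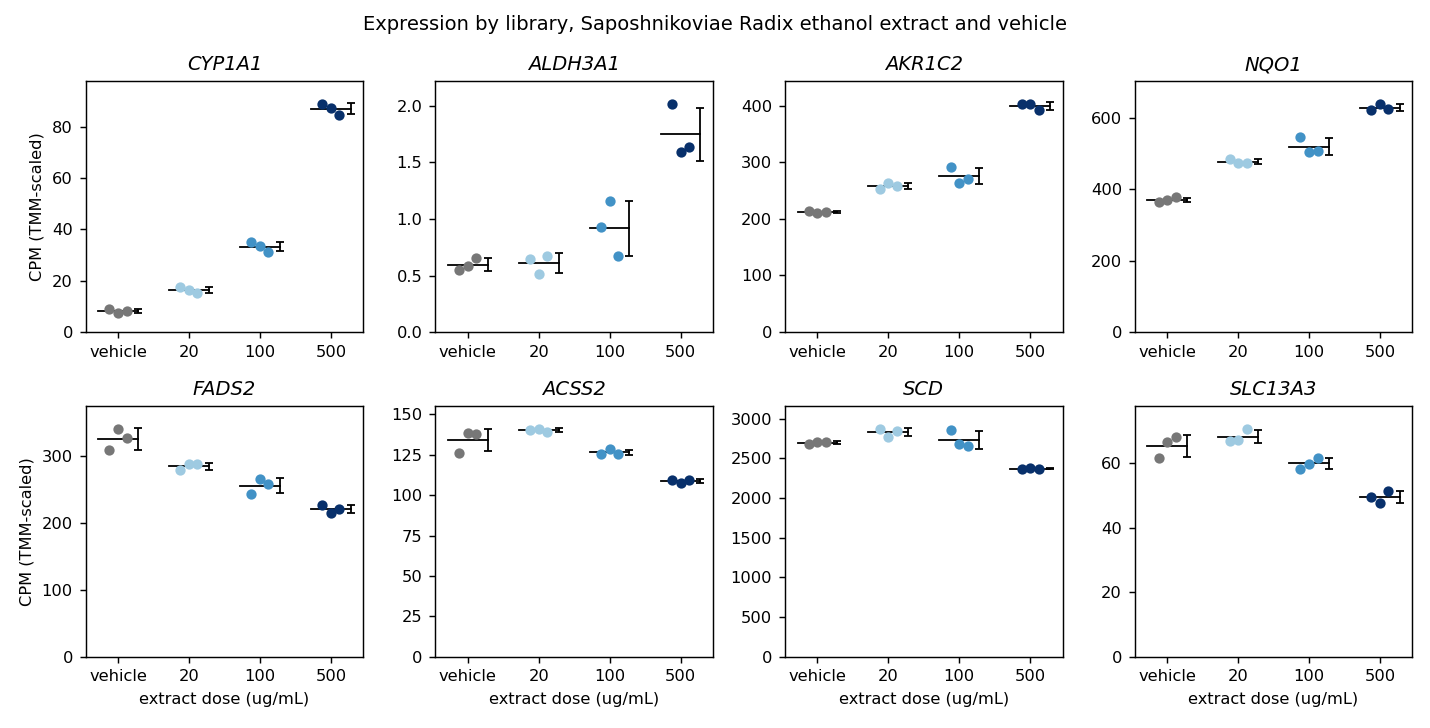
Expression (TMM-scaled CPM) by library in vehicle and at 20, 100 and 500 ug/mL, with the mean (line) and SD (bar) of 3 libraries. CYP1A1, ALDH3A1, AKR1C2 and NQO1 were higher and FADS2, ACSS2, SCD and SLC13A3 lower in all 3 libraries of 500 ug/mL than in all 3 of 20 ug/mL; vehicle libraries belong to another set.

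Of the 21 NRF2 targets tested, 10 rose and none fell, against 0.389% of all genes rising. The median over the 21 was 0.19, and 19 of them had a fold change above 0. The largest changes were in aldo-keto reductases, which reduce reactive carbonyls, steroids and retinal. AKR1C2 was at 403, 403 and 391 CPM at 500 ug/mL and at 253, 263 and 258 CPM at 20 ug/mL (chr10:4987400-5018031, minus strand). Both groups were tight and far apart, and the change was 1.55-fold (log2 0.63, SE 0.060, adjusted p = 9.73e-10). AKR1B10 was at 75.4, 77.6 and 75.3 CPM against 49.3, 53.8 and 51.4 CPM (chr7:134527592-134541408, plus strand), a 1.48-fold change with adjusted p = 6.53e-09. AKR1C1 (831, 862 and 859 CPM against 621, 622 and 672 CPM) was 1.33-fold higher. AKR1C1 and AKR1C2 are near-identical neighbours on chromosome 10, and reads shared between them could be split by the counting.

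NQO1 was at 620, 639 and 624 CPM at 500 ug/mL and at 485, 472 and 473 CPM at 20 ug/mL (chr16:69706996-69726951, minus strand). It was 1.32-fold higher with no overlap (log2 0.40, SE 0.039, adjusted p = 1.79e-09), and its 100 ug/mL libraries (546, 505 and 508 CPM) lay between. Enzymes of the glutathione and thioredoxin systems rose less. GCLM, the modifier subunit of the enzyme that limits glutathione synthesis, had a log2 fold change of 0.33 (adjusted p = 0.000496). The reductases TXNRD1 (0.21, adjusted p = 0.000411) and GSR (0.20, adjusted p = 0.00130) and the sulfiredoxin SRXN1 (0.19, adjusted p = 0.0120) were called as well. Efflux pumps for conjugated drugs and bile pigments completed the 10: ABCC3 (0.25, adjusted p = 0.00542) and ABCC2 (0.20, adjusted p = 0.00306). ABCC3 lost its call when the pooled low doses of 7 extracts were the reference (log2 values from 0.08 to 0.27 over the alternatives).

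The 11 NRF2 targets that were not called included HMOX1, which breaks down haem, at 57.3, 55.8 and 58.9 CPM against 50.6, 50.3 and 50.6 CPM. Its groups did not overlap, and its log2 fold change of 0.18 had adjusted p = 0.0776. HMOX1 was called higher in 6 of 15 alternative settings. GCLC, the catalytic partner of GCLM, had 0.17 (adjusted p = 0.0646). The pentose phosphate enzymes TALDO1 (0.16), TKT (0.15) and PGD (0.02) and the cystine carrier SLC7A11 (-0.21, SE 0.145) were not called. When only the groups of this comparison were fitted, 16 of the 21 were called higher and 1 was called lower.

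Over all genes tested, 0.389% were called higher. Genes regulated by the xenobiotic receptors PXR and CAR gave 1 higher call among the 9 tested, ABCC2, which is also an NRF2 target. CYP3A4, their best known target, stood at 0.131, 0.377 and 0.353 CPM against 0.180, 0.170 and 0.197 CPM (log2 0.64, SE 0.607, adjusted p = 0.796), a level at which this depth could not resolve a change. SULT2A1, a sulfotransferase of bile acids and steroids, was at 118 CPM at both doses. Of 13 genes of bile acid handling, the pumps ABCC2 and ABCC3 were the only ones called, both higher, against the same 0.389% of all genes.

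**Figure D3:**
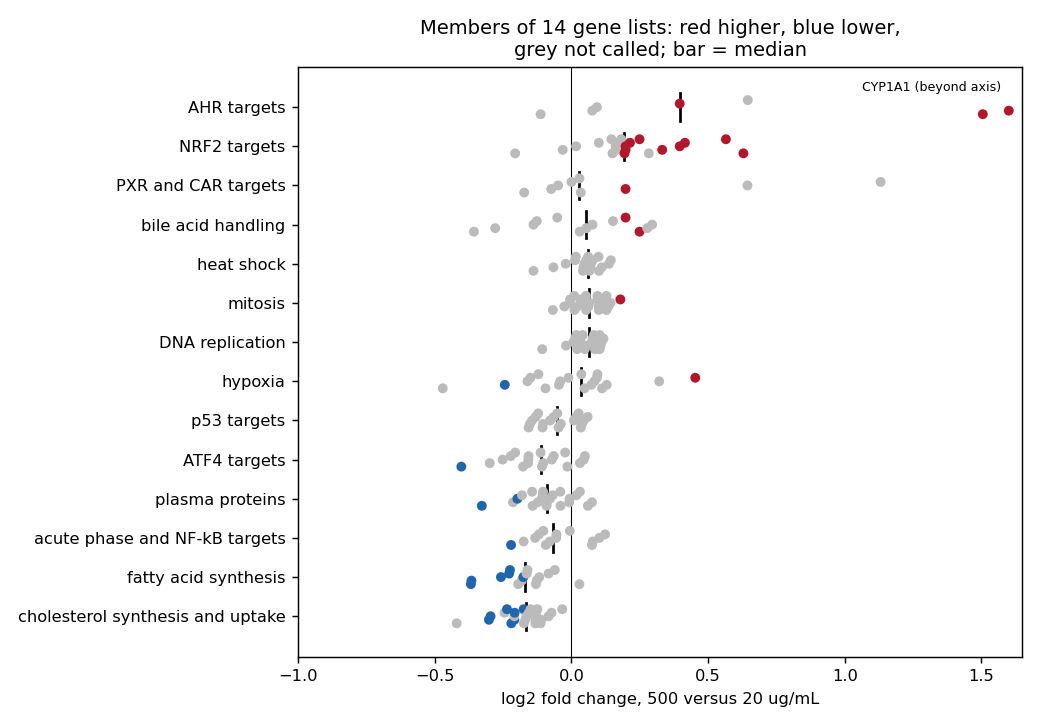
Each point is a member of 1 of 14 gene lists, placed by its log2 fold change between 500 and 20 ug/mL; red marks genes called higher, blue genes called lower, grey genes not called, and the bar the list's median. Called members of the AHR and NRF2 lists lie to the right of 0 and those of the 2 lipid synthesis lists to the left; CYP1A1, at 2.40, is drawn at the right edge.

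Of the 25 genes of cholesterol synthesis and uptake tested, 7 were called lower, by small amounts, and none higher, against 0.442% of all genes lower, and all 25 fold changes were below 0 (median -0.16). TM7SF2, a sterol reductase, was at 67.2, 68.3 and 67.4 CPM at 500 ug/mL and at 83.9, 81.5 and 83.7 CPM at 20 ug/mL (chr11:65111845-65116384, plus strand). It changed 1.23-fold without overlap (log2 -0.30, SE 0.059, adjusted p = 0.00378). LSS, the cyclase that makes lanosterol, had -0.24 (259, 257 and 266 CPM against 314, 302 and 305 CPM, adjusted p = 0.00258). FDPS (-0.22), DHCR7 (-0.21), ACAT2 (-0.21) and FDFT1 (-0.17) were also called, of which FDPS lost its call without high-dose replicate 1 and without low-dose replicate 3. HMGCS1 (-0.21, adjusted p = 0.0827) did not pass, although it was called lower in 6 of 15 alternative settings. The count of called cholesterol genes fell to 4 without high-dose replicate 1 and to 4 without low-dose replicate 3. It rose to 17 when only the groups of this comparison were fitted.

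Fatty acid synthesis gave a similar picture: 6 of 16 genes tested were called lower, against 0.442% of all genes, none was called higher, and the median was -0.17. ACSS2, which makes acetyl-CoA from acetate, was at 109, 107 and 110 CPM at 500 ug/mL, 126, 128 and 126 CPM at 100 ug/mL and 141, 141 and 139 CPM at 20 ug/mL (chr20:34872146-34927962, plus strand). The 3 doses were fully separated, and the fold change between 500 and 20 ug/mL was 1.29 (log2 -0.37, SE 0.036, adjusted p = 1.71e-09). FADS2, a desaturase of polyunsaturated fatty acids, was at 226, 215 and 221 CPM against 278, 288 and 287 CPM (log2 -0.37, adjusted p = 7.87e-08). SCD, the desaturase that makes oleate, was among the most abundant of the called genes, at 2364, 2376 and 2366 CPM against 2877, 2771 and 2850 CPM (log2 -0.26, SE 0.033, adjusted p = 1.37e-06). ELOVL6 (-0.23), FADS1 (-0.22) and ACLY (-0.18) were the remaining calls, and ELOVL6 lost its call without high-dose replicate 3 and without low-dose replicate 2. FASN, the fatty acid synthase (-0.12, adjusted p = 0.472), and SREBF1, the gene of the driving factor (-0.20, adjusted p = 0.147), did not pass. The count was 12 when only the groups of this comparison were fitted. It was 5 without high-dose replicate 2 or 3 and without low-dose replicate 1 or 2, each left out in turn.

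Some genes outside these lists also stood among the 12 highest and 12 lowest called changes. MRAS, a small GTPase, was at 33.3, 34.7 and 32.7 CPM against 26.3, 23.4 and 22.6 CPM (log2 0.48, adjusted p = 8.13e-06). SOS1, an exchange factor that loads Ras proteins with GTP, was at 153, 143 and 140 CPM against 110, 107 and 105 CPM (log2 0.43, adjusted p = 1.25e-07). HAMP encodes hepcidin, the liver hormone that limits iron export from cells, and was at 33.2, 31.1 and 32.0 CPM against 23.2, 22.9 and 23.8 CPM (log2 0.46, adjusted p = 0.00107). In each of the 3 genes the doses did not overlap. CPLX2, a complexin of secretory vesicle fusion, had a log2 fold change of 0.42 (288 CPM ± 16.3 against 215 ± 18.5, SD, n = 3), although its vehicle mean of 308 CPM was above both doses. ADM, a vasodilator peptide, the channel PANX2 and the acyltransferase GPAT3 had log2 fold changes between 0.41 and 0.45 at means of 4.69 to 7.13 CPM; ADM and PANX2 lost their call in 7 and GPAT3 in 8 of 15 alternative settings.

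On the lower side, SLC13A3, a sodium-coupled carrier of dicarboxylates, was at 49.6, 47.5 and 51.4 CPM at 500 ug/mL, 58.2, 59.9 and 61.7 CPM at 100 ug/mL and 66.9, 67.1 and 70.8 CPM at 20 ug/mL (chr20:46557823-46684467, minus strand). The doses were separated, with a 1.38-fold change (log2 -0.46, SE 0.045, adjusted p = 1.03e-09). MATN3, a matrilin of cartilage matrix, was at 82.0, 82.7 and 87.2 CPM against 112, 116 and 124 CPM (log2 -0.48, adjusted p = 3.54e-09), and COL2A1, the collagen of cartilage, was 1.28-fold lower (51.4 CPM ± 3.86 against 65.8 ± 3.32, SD, n = 3). The metalloprotease MMP11 (-0.46), the kinases WNK4 (-0.43) and DMPK (-0.37), the vesicle protein SV2A (-0.41) and HID1 (-0.52) had means of 3.53 to 14.9 CPM. PDGFRB, a growth factor receptor of stromal cells, was at 7.62, 6.08 and 8.70 CPM against 10.8, 9.27 and 11.4 CPM (log2 -0.49, adjusted p = 0.0139). It is 1 of 8 stromal markers, which summed to 55 to 59.8 CPM at 500 ug/mL and 63.3 to 68.7 CPM at 20 ug/mL, mostly from ACTA2, with DCN, LUM and COL1A2 at 0; their part in the result was not tested. COL2A1 lost its call without high-dose replicate 1 and without low-dose replicate 3. WNK4 lost its call without high-dose replicate 1 and in DESeq2, and MMP11 without low-dose replicate 3 (log2 values from -0.54 to -0.27 over the alternatives) and in DESeq2. DMPK, HID1, SV2A and PDGFRB lost theirs in 7, 7, 6 and 5 of 15 alternative settings.

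Several stress and cell state lists had few or no called members. Over all genes tested, 0.389% were called higher and 0.442% lower, so a single call in a short list exceeds these shares. Among 19 ATF4 targets, which serve amino acid supply, ASNS (asparagine synthetase) was the only call, at 25.6, 23.8 and 25.4 CPM against 31.8, 34.9 and 32.3 CPM (log2 -0.40, adjusted p = 0.0127), and it lost the call without high-dose replicate 2 or low-dose replicate 2. Lists of p53 targets (19 tested), the unfolded protein response (18), heat shock (19), fatty acid oxidation (18), DNA replication (24), gluconeogenesis (10), metallothioneins (8), immediate early genes (19), interferon response (15), Wnt targets (12) and mitochondrially encoded genes (13) had no member called in either direction, with medians from -0.06 to 0.06. Together with the 8 genes of the AHR complex these lists hold 183 tested entries, of which edgeR gave 9 higher and 10 lower ones at an unadjusted p under 0.05 (10.4% of all genes in either direction), and DESeq2 called 3 higher and 2 lower. CDKN1A, the p53 target that stops the cell cycle, was at 61.8, 59.8 and 58.1 CPM against 63.1, 70.2 and 66.5 CPM (log2 -0.15, adjusted p = 0.554). MKI67, a proliferation marker, was at 542 CPM ± 11.5 against 519 ± 27.7 (SD, n = 3; adjusted p = 0.751). Of 24 mitosis genes, KIF20A alone was called (log2 0.18, adjusted p = 0.0342), as was TUBA1C of 11 tubulins (log2 0.21, adjusted p = 0.0356), a gene with near-identical paralogs. At an unadjusted p under 0.05 (edgeR), 10 of the 24 mitosis genes were higher and none lower. Fold changes were above 0 for 20 of the 24, and DESeq2 called 3 higher. Among hypoxia genes ADM was higher and SLC2A1, the glucose carrier, lower (454, 458 and 488 CPM against 541, 550 and 566 CPM; log2 -0.24, adjusted p = 0.00268). TUBA1C lost its call whichever 1 of the 6 libraries was left out, and KIF20A for 4 of them.

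Plasma proteins, the secreted products of hepatocytes, gave 2 calls among 22, both lower, against 0.442% of all genes called lower. At an unadjusted p under 0.05 (edgeR), 8 of the 22 were lower and none higher, against 10.4% of all genes in either direction. TTR, the carrier of thyroxine and retinol, was at 71.1, 65.5 and 67.2 CPM against 82.9, 83.9 and 89.0 CPM (log2 -0.33, adjusted p = 0.0182), and VTN, vitronectin, was at 92.6, 91.9 and 95.4 CPM against 104, 105 and 112 CPM (log2 -0.20, adjusted p = 0.0211). Neither overlapped between the doses. TTR lost its call without replicate 2 or 3 of either dose, and VTN without replicate 1 or 2 of 500 ug/mL and without replicate 3 of 20 ug/mL. The list's median was -0.09, and ALB, albumin, was at 9281 CPM ± 170.0 against 9799 ± 330.0 (SD, n = 3; log2 -0.08, adjusted p = 0.620). TTR and ALB are also among the hepatocyte markers whose sum was lower at 500 ug/mL, and the part of that sum in these results was not tested. Complement factor B (CFB) was the only call among 14 acute phase genes, at 123, 127 and 127 CPM against 145, 142 and 152 CPM (log2 -0.22, adjusted p = 0.000209).

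The intermediate dose lay between the others for most called genes. The mean at 100 ug/mL was between the means at 20 and 500 ug/mL for 64 of the 66 higher genes and for 73 of the 75 lower genes. These comparisons share libraries, so the order is a description. In the test of 100 against 20 ug/mL, 2 genes were called (0.0118%), with 1 in each direction (0.00589%): CYP1A1, higher, and RAB17, a small GTPase of epithelial trafficking, lower (30.6, 33.5 and 35.05 CPM at 100 ug/mL against 41.3, 41.5 and 44.7 CPM at 20 ug/mL), with 33.5, 34.4 and 35.3 CPM at 500 ug/mL. RAB17 was named after its values were seen, and 1 gene remained called without 100 ug/mL replicate 1 or 2 or without low-dose replicate 3. Between 500 and 100 ug/mL, 25 genes were called (0.147%), 13 higher (0.0766%) and 12 lower (0.0707%) at 500, and the number was 11 and 12 without high-dose replicates 1 and 2 and 15 without each library of 100 ug/mL in turn. AKR1C2 (log2 0.54), AKR1B10 (0.56) and NQO1 (0.27) were higher and SCD (-0.21), ACSS2 (-0.22) and SLC13A3 (-0.28) lower in it. AKR1B10 was at 53.8, 49.6 and 52.0 CPM at 100 ug/mL, within the range at 20 ug/mL.

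The vehicle mean was below both doses for 34 of the 66 higher genes, between them for 23 and above both for 9. For the 75 lower genes it was above both for 41, between for 26 and below both for 8. NQO1 averaged 370 CPM in vehicle, below both doses, and FADS2 averaged 325 CPM, above both.

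Menthae Herba at the same doses, from libraries that Saposhnikoviae Radix does not share, moved the same main lists by more. In Menthae Herba, 18 of the 21 NRF2 targets were called higher (10.8% of all genes were) and 24 of the 25 cholesterol genes were called lower (12.5% of all genes were), with medians of 0.48 and -0.86. The difference between the dose responses of the 2 herbs was tested directly, and 1803 genes differed (10.6%), 1066 with a higher value in Saposhnikoviae Radix (6.28%) and 737 with a lower one (4.34%). Of the cholesterol genes 23 of 25 were among the higher, and of the fatty acid synthesis genes 14 of 16. HMGCS1 had a log2 fold change of -0.21 in Saposhnikoviae Radix and -1.40 in Menthae Herba, a difference of 1.19 (SE 0.084, adjusted p = 3.55e-15). ACSS2 had -0.37 against -1.31. Among NRF2 targets 11 of 21 differed with a lower value in Saposhnikoviae Radix and 2 with a higher one, and AKR1B10 had 0.56 against 1.46 (difference -0.90, adjusted p = 1.72e-11). CYP1A1 rose in both, with 2.40 against 3.25 (difference -0.85, SE 0.137, adjusted p = 9.48e-06).

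Some genes moved in Menthae Herba and not, or oppositely, in Saposhnikoviae Radix. All 8 metallothionein and zinc export genes were lower in Menthae Herba (median -2.31) and none was called in Saposhnikoviae Radix (median -0.02), and the difference was called for all 8. MT1G, for example, was at 63.1 CPM at 500 ug/mL and 59.3 CPM at 20 ug/mL of Saposhnikoviae Radix, and the dose responses differed by 3.23 on the log2 scale (adjusted p = 4.46e-20). HAMP rose with Saposhnikoviae Radix (0.46) and fell with Menthae Herba (-1.99), a difference of 2.45 (SE 0.132, adjusted p = 1.32e-18). ASNS fell with Saposhnikoviae Radix (-0.40) and rose with Menthae Herba (0.76), a difference of -1.17 (adjusted p = 4.95e-10). For ALDH3A1 the values of 1.505 and 1.355 gave a difference of 0.15 with SE 0.350 (adjusted p = 0.884), an error too wide to tell equal from unequal responses.

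**Figure D4:**
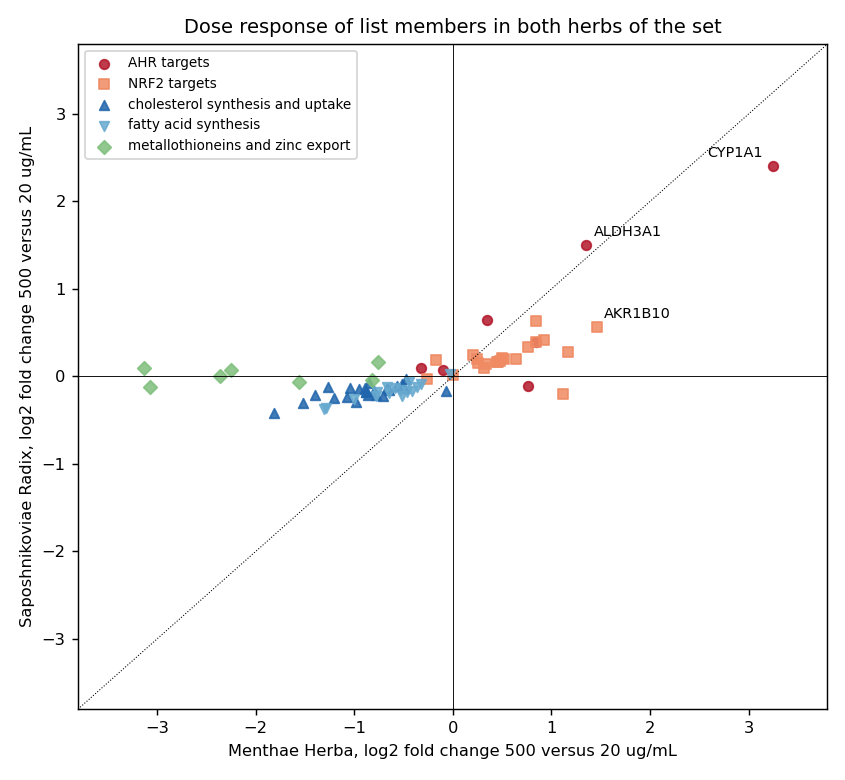
Each point is a member of 5 gene lists, placed by its log2 fold change between 500 and 20 ug/mL in Menthae Herba (across) and in Saposhnikoviae Radix (upward); the dotted line marks equal values. Most points lie nearer to 0 on the vertical than on the horizontal axis, and the metallothioneins spread from -0.76 to -4.19 across while staying near 0 upward, where 1 of them (MT1M) lies outside the axes.

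The 66 higher genes were set beside the calls in 6 other extracts, all from other libraries. Menthae Herba also raised 48 of them (72.7%, against 10.8% of all genes), which is 2.61% of its own higher genes. Guibi-tang, a decoction of several herbs, raised 45 (68.2%, against 16.8%). Soyo-san, also a decoction, raised 37 (56.1%, against 2.13%), and Saengmaek-san raised 16 (24.2%, against 0.206%), which is 45.7% of the genes Saengmaek-san raised. Polygalae Radix (30.3%, against 31.1%) and Aucklandiae Radix (27.3%, against 33.9%), given at 250 and 280 ug/mL as their high dose, raised shares near or below their own background. They lowered 32 and 34 of the 66, against 33% and 35.5% of all genes lowered. Of the 75 lower genes, Menthae Herba lowered 51 (68%, against 12.5%) and Guibi-tang 59 (78.7%, against 17.5%). Polygalae Radix lowered 65 (86.7%, against 33%), Aucklandiae Radix 53 (70.7%, against 35.5%), Soyo-san 35 (46.7%, against 1.83%) and Saengmaek-san 13 (17.3%, against 0.23%). CYP1A1 was called higher in each of the 6 extracts, with log2 fold changes from 0.69 in Aucklandiae Radix to 4.12 in Guibi-tang.

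**Figure D5:**
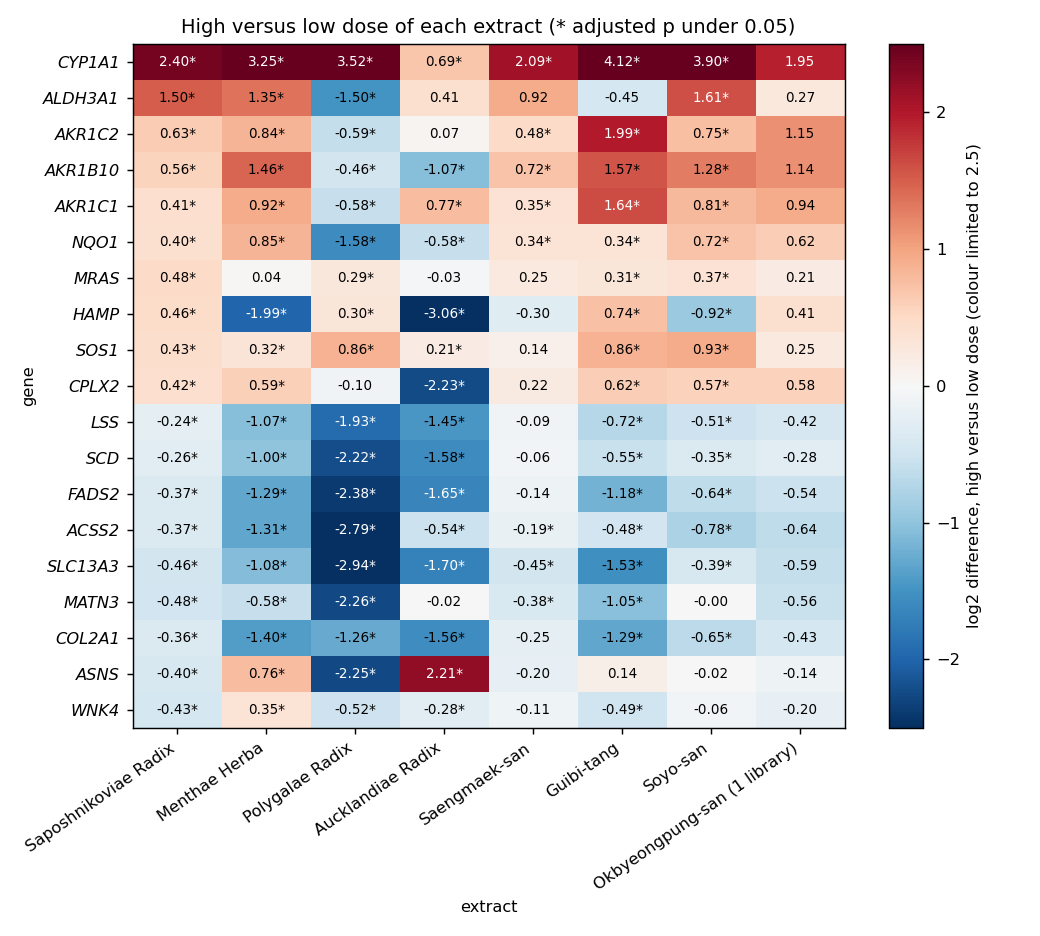
Log2 difference between the high and low dose of each extract (columns) for 19 of the genes named in the text (lines), with an asterisk where the adjusted p was under 0.05; colour is limited to 2.5 in either direction. CYP1A1 is called in all 7 extracts with replicates, while HAMP and ASNS take both signs across extracts; Okbyeongpung-san had 1 library a dose and no test.

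Okbyeongpung-san is a decoction whose traditional recipe includes Saposhnikoviae Radix, and it had a single library at each dose. Its 500 and 20 ug/mL libraries differed by log2 1.95 for CYP1A1, 1.145 for AKR1C2, 0.62 for NQO1, -0.54 for FADS2 and -0.59 for SLC13A3. These 5 differences have the sign seen with Saposhnikoviae Radix and no replicate check.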

How the data were processed

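Expected counts per gene were deposited by the authors in 1 table. Per the submitters' processing notes, FastQC 0.11.9, Trim Galore 0.6.5, STAR 2.7.3a, RSEM 1.3.3 and the GRCh38 build were used. The annotation release and the strand setting of the counting, not given in the sources used here, are unknown. The labels' protocols give a directional library kit and paired reads of 100 bases. The expected counts were rounded (10.0% of values were not whole). Of 60675 gene identifiers, 57055 were found in GENCODE 29, which supplied coordinates; 0.046% of counts lay outside them.

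Genes were tested with edgeR 4.0.16 (R 4.3.3), by its quasi-likelihood test with TMM scaling, filterByExpr at a minimum count of 10 and Benjamini-Hochberg adjustment over 16982 genes. Group means were fitted over 57 libraries of 22 groups (35 residual degrees of freedom, coefficient of variation 4.7%); the 3 single libraries of Okbyeongpung-san were left out. CPM values of single genes use TMM-scaled library sizes, while the summed marker levels use total library counts without that scaling. Fold changes of the edgeR tests use its default prior count. A prior count of 2 was used only for log2 levels of single libraries, as in the Okbyeongpung-san differences, the GC and length trends and the pairing check. The code was tested on simulated data with changes set in well-expressed genes. It recovered 30% of genes changed 1.15-fold, 84% at 1.3-fold and 100% at 1.5-fold, with 9 false calls. Genes not called may thus have small changes. Replicates of a dose differed by more than sampling noise (chi-square per gene 1.93 to 8.94), so none is a copy.

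The extract and the 24 gene lists were chosen with earlier results of these data known. The genes named are the 12 highest and 12 lowest called changes that reach a mean of 5 CPM at either dose, up to 4 called members per list, a fixed panel of 17 genes, and the 5 highest and 5 lowest differences from Menthae Herba. All other names were chosen after their values were seen. Some genes are not reported here. Alternatives were RLE scaling, 2 other filters, DESeq2 1.42.0, the replicate number as a block, removal of GC and length trends, both together, fitting only the groups compared, and leaving out each library. A reference of the pooled low doses of 7 extracts was added after seeing the data.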

Additional observations from a re-analysis of the deposited data

Results flagged for a closer look

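For many of the genes named or kept on the panel, the response to 500 against 20 ug/mL differed between Saposhnikoviae Radix and Menthae Herba. The test was of the difference itself (edgeR interaction contrast, adjusted p under 0.05). The 16 genes below are on the panel or were singled out for this difference. Other named genes were called too, such as SCD (0.744) and AKR1C1 (-0.506). Each value is the Saposhnikoviae Radix log2 fold change minus that of Menthae Herba. The value was above 0 for HAMP (2.45), the sterol and lipid genes HMGCS1 (1.19) and ACSS2 (0.94), the anion carrier SLCO4C1 (1.23), the collagen COL2A1 (1.04), the proliferation marker MKI67 (0.51), ALB (0.37) and HMOX1 (0.36). It was below 0 for ASNS (-1.17), FILIP1L (-1.11), AKR1B10 (-0.90), SAT1 (-0.88), CYP1A1 (-0.85), NQO1 (-0.45), CDKN1A (-0.45) and AHR (-0.28).

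SAT1, which acetylates polyamines, was at 75.5, 74.1 and 75.4 CPM at 500 ug/mL of Saposhnikoviae Radix and at 86.0, 88.5 and 83.1 CPM at 20 ug/mL, a log2 fold change of -0.19, while its value in Menthae Herba was 0.69. FILIP1L was likewise lower with Saposhnikoviae Radix (-0.27) and higher with Menthae Herba (0.85). SLCO4C1 was lower with both, by -0.26 and -1.49. Over the 10 genes singled out for this difference, which include CYP1A1 and HAMP, the call held under all 20 alternative settings. The calls of SAT1, FILIP1L and SLCO4C1 within Saposhnikoviae Radix were lost in 6, 4 and 5 of 15.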

How the results depend on the processing

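Of the genes recomputed for 500 against 20 ug/mL, which are those the naming rule gave, none was called in the opposite direction under 15 alternative settings (14 for AHRR and 13 for CYP3A4). Genes named after their values were seen, and list members beyond 4 calls per list, were not followed across settings. CYP1A1 stayed between log2 2.35 and 3.13, AKR1C2 between 0.50 and 0.64, NQO1 between 0.34 and 0.41, ACSS2 between -0.38 and -0.36 and SLC13A3 between -0.49 and -0.31, all called throughout. The number of genes called (141; 66 higher, 75 lower) rose to 250 (103 and 147) with no filter on low counts, 420 (246 and 174) with GC and length trends removed, 389 (194 and 195) with only the groups of the comparison and 503 (263 and 240) against the pooled low doses of 7 extracts, a reference chosen after seeing the data. Leaving out 1 library gave 57 to 102 called, 29 to 44 higher and 28 to 58 lower, with fewer samples in the fit. For 100 against 20 ug/mL (2 called) the number was 92 with no filter and 1 with only the groups compared, and 1 to 2 without 1 library. For 500 against 100 ug/mL (25 called) it was 129 with no filter and 53 with trends removed, and 11 to 20 without 1 library. The difference from Menthae Herba (1803 called) stayed between 1457 and 2599. The cause of these shifts was not tested.

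Replicate numbers did not pair the libraries of 500 and 20 ug/mL. Deviations of their same-numbered libraries correlated at 0.01, -0.02 and 0.02, and not every library matched its own number best. Between 100 and 20 ug/mL each library matched its own number best, with correlations of 0.11, 0.09 and 0.03. The fit with a replicate block called 160 genes (74 higher, 86 lower), and the block with trends removed called 500 (293 and 207) and, for 500 against 100 ug/mL, 64. Genes under about 1 CPM, such as CYP3A4 and AHRR, were too shallow for small changes to be resolved.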

Other observations

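The genes described here were named after their values were seen and stand for no tested group. ALDH1A1, which oxidises retinal and other aldehydes, was at 389, 387 and 387 CPM at 500 ug/mL and 312, 312 and 304 CPM at 20 ug/mL (log2 0.33, adjusted p = 1.63e-06). The glutathione enzymes MGST1 (log2 0.30), GSTA1 (0.30) and GPX2 (0.24), the reductase PTGR1 (0.32), the nuclear protein PIR (0.33), the glucuronic acid enzyme UGDH (0.19) and the efflux pump ABCG2 (0.28) were called higher as well. Groups were apart in each, as for ABCG2 with 20.2, 16.9 and 16.7 CPM against 14.2, 14.6 and 15.3 CPM.

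Beside HAMP, the iron exporter SLC40A1 (ferroportin), whose protein hepcidin degrades, was lower at 500 ug/mL, at 56.7, 56.2 and 58.0 CPM against 66.3, 65.5 and 65.6 CPM (log2 -0.21, adjusted p = 0.00268). SPP1, a secreted phosphoprotein, was at 652, 659 and 647 CPM against 558, 493 and 521 CPM (log2 0.32, adjusted p = 0.000163). SPP1 supplied most of the sum of 5 cholangiocyte markers, 1140 to 1150 CPM against 1010 to 1070 CPM, and the part of such cells was not tested. EREG, a growth factor of the EGF family, was at 0.920, 0.922 and 1.59 CPM against 0.396, 0.595 and 0.354 CPM (log2 1.35, adjusted p = 0.0158).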
